A study of Schizosaccharomyces pombe with 8 samples.

Results

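Histone H3 trimethylated at lysine 4 (H3K4Me3) was set against total histone H3 along the genome of the fission yeast Schizosaccharomyces pombe in nitrogen-rich cells (+N). Of the 8 arrays in the series, 4 entered this comparison. They were the 2 arrays of the group H3K4Me3 +N and the 2 arrays of the group H3 +N, paired by replicate number. The tested quantity is the difference H3K4Me3 minus H3 on the log2 scale, that is, methylation per unit of H3. Each antibody had been hybridized with its own input DNA, and each log2 ratio of ChIP to input was centred on the median probe of its array. A difference of 0 therefore means that H3K4Me3 and H3 stood at the same level relative to the median probe of their own arrays. It is not the median of the difference, which was 0.205 over single probes and 0.609 over the windows of 5 probes used below. Counts of higher and lower places are set against 0 and partly reflect this offset. The values rank places in the genome without giving the share of nucleosomes that carry the mark.

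All cells were h+/h+ diploids homozygous for pat1-114 and carrying ade6-M210 and ade6-M216. The temperature-sensitive pat1-114 allele drives cells into meiosis when they are shifted to 34°C, whatever the nutrients. The +N cells had been kept in rich nitrogen, arrested before S phase with the mating pheromone M-factor and sampled 30 min after the shift. The −N cells, used here only for comparison, had been starved of nitrogen, fed again and sampled 2 h after the shift. Pheromone, starvation and time differ together between +N and −N and cannot be told apart. Replicate 1 of all groups lay on slide 1 and replicate 2 on slide 2. The study calls its repeats biological, but the labels do not say that these replicates were separate cultures, and p-values measure only the spread between the slides.

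In yeasts, H3K4 methylation is laid down by the Set1 enzyme within the COMPASS complex, which travels with RNA polymerase and trimethylates nucleosomes at the beginning of transcribed genes. Just upstream of many genes lies a stretch with few nucleosomes, where both antibodies find little to bind. In fission yeast, heterochromatin covers the centromeres, the silent mating-type cassettes and the chromosome ends, and typically lacks this mark. Dividing by H3 asks where nucleosomes that are present carry methylation.

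The sensitivity of the arrays differed. In the ChIP channel, 44.6% of spots were well above background for H3K4Me3 +N on slide 1 and 90.2% on slide 2, against 89.2% and 98.4% for H3 +N. Low H3K4Me3 values on slide 1 therefore often rest on signal near background, and the size of such differences is less certain. Over the 66 probes of mitochondrial DNA, which has no nucleosomes, the log2 ratio was −3.14 and −2.85 for H3K4Me3, against −4.48 and −3.84 for H3. A locus with neither mark nor nucleosomes thus showed a difference of 1.34 on slide 1 and 0.99 on slide 2, not 0. A positive difference at a locus where H3 is very low has to be read against these values.

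The promoters of the genes at both extremes are shown first, because the results below turn on these genes and on the nucleosomes in and beside their promoters. Each line gives the 250 bases directly upstream of the annotated 5′ end, read 5′ to 3′ on the strand of the gene from the RefSeq assembly ASM294v3. Capitals mark a TATA box, spelled TATAAA, on either strand. The highest genes among those named were ags1 (III:1372847-1373096, plus strand), wee1 (III:721554-721803, plus strand) and hhp2 (I:1048748-1048997, plus strand). The lowest were cmt2 (II:65552-65801, minus strand), opt3 (III:2281362-2281611, plus strand) and SPBC23G7.10C (II:2119479-2119728, minus strand).
ags1: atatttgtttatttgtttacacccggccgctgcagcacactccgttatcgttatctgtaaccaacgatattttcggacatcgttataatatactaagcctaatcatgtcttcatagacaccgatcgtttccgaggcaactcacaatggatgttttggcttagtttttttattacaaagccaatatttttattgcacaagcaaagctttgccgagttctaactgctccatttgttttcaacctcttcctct
wee1: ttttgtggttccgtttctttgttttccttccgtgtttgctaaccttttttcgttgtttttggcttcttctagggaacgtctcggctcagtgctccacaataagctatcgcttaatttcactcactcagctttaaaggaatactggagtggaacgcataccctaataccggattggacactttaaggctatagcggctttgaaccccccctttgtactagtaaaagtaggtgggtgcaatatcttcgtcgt
hhp2: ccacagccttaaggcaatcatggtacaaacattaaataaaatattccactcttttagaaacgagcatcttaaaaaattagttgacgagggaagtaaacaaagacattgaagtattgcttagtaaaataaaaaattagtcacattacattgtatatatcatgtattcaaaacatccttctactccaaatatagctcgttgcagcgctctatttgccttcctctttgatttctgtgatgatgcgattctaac
cmt2: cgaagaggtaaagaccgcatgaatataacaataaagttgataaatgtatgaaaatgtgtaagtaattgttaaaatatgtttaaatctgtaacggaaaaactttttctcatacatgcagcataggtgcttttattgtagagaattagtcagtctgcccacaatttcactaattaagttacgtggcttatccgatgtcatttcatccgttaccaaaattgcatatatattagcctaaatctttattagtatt
opt3: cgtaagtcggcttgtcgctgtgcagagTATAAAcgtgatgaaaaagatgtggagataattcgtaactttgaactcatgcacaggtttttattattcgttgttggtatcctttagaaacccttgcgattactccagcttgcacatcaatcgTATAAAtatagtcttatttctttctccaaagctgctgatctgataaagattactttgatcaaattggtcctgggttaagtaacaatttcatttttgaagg
SPBC23G7.10C: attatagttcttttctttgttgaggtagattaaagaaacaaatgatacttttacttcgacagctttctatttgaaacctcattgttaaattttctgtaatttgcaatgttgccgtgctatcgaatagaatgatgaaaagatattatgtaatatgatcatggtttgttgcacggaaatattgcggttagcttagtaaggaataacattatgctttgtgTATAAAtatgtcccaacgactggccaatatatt

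On both slides the methylation per H3 was concentrated at the beginning of genes. Around the 5′ ends of protein-coding genes, the mean difference peaked 150 bp downstream of the 5′ end, at 2.98 on slide 1 and 3.45 on slide 2. There H3K4Me3 was also highest, at 2.54 and 3.15, against H3 at −0.44 and −0.29. Upstream of the 5′ end the antibodies parted. At 150 bp upstream, H3K4Me3 was 1.10 and 1.71, against H3 at −1.20 and −0.84, so that the difference was still 2.42 on average although H3K4Me3 alone had dropped to 1.41. Division by H3 thus widened the peak on its upstream side. Downstream, the mean difference crossed 0 between 750 and 850 bp and lay at −1.19 at 1650 bp. Towards the 3′ end the mean difference was −0.17 at 450 bp before the end and 1.15 at 350 bp after it, in the intergenic regions that often hold the start of the next gene.

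**Figure D1:**
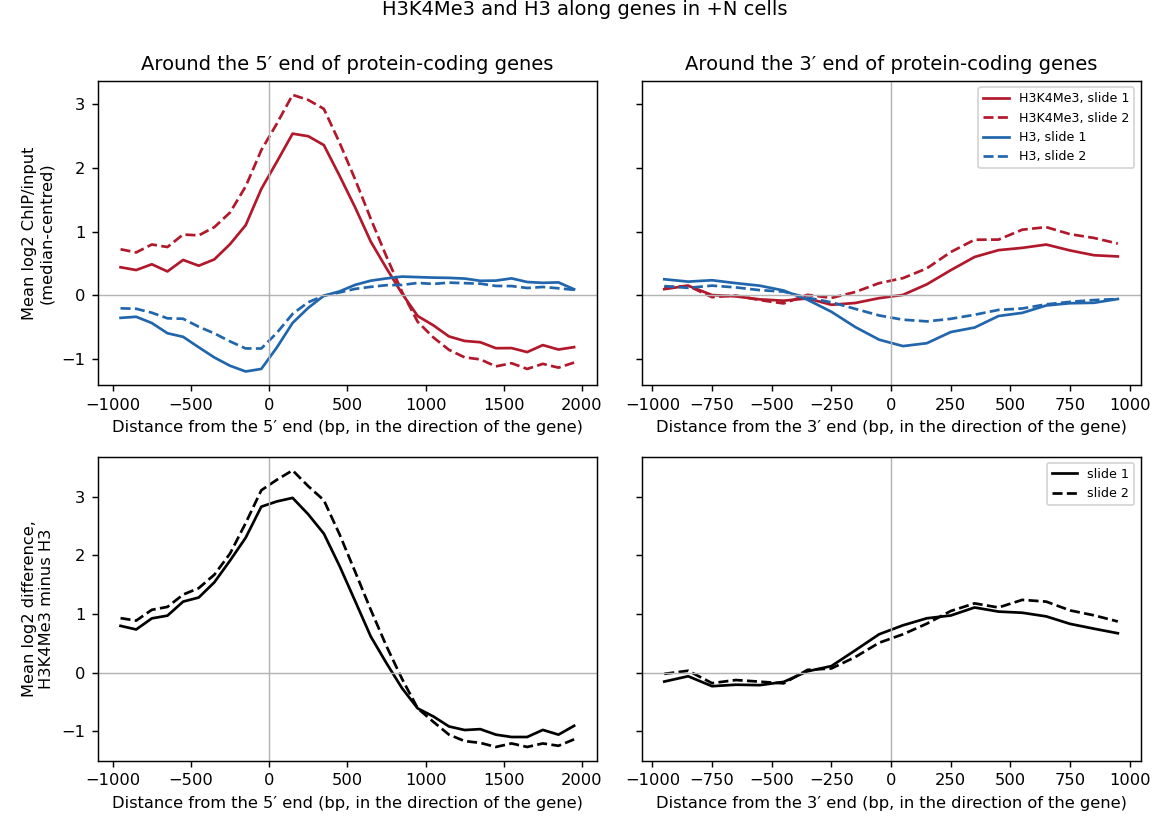
Mean H3K4Me3 and H3 (top row, log2 ChIP/input) and their difference (bottom row, log2) in 100 bp bins around the 5′ end (left) and 3′ end (right) of protein-coding genes in +N cells, with 1 line per slide. The difference peaks 150 bp after the 5′ end on both slides, and its upstream flank lies where H3 is lowest.

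Within genes, the 5′ end, reaching from 250 bp before the annotated start to 750 bp inside the gene, exceeded the rest of the gene by 2.69 on slide 1 and 3.22 on slide 2, a mean of 2.96 ± 0.37 (SD, n = 2 slides, 3625 genes). For H3K4Me3 the excess was 2.25 and 2.88, against −0.45 and −0.35 for H3. The difference was higher at the 5′ end on both slides in 3388 of the 3625 genes and lower on both slides in 92. In −N cells the excess was 2.45 and 2.67, below the +N value on each slide. With 2 slides, no exact sign-flip test can give a p under 0.5, and none was run.

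Over the genome, 37227 windows of 5 probes were tested, each spanning a median of 1304 bp. Coordinates of windows are those of the array files, whose genome build is not given in the sources used here. By limma with Benjamini-Hochberg adjustment at 0.05, 18474 windows (49.6%) were above a difference of 0 (higher) and 10286 (27.6%) below it (lower). Centred on the 10th percentile of each array in place of the median, 4404 were lower. With a further limit of 2-fold, 15395 (41.4%) were higher and 8224 (22.1%) lower. The test had 1 residual degree of freedom, and limma assigned all windows the same standard error (0.30), so that a call follows the mean difference alone and 98 called windows had opposite signs on the slides. Slide 1 and slide 2 had a correlation of r = 0.93 over windows, which overlap and are not independent. The difference followed H3K4Me3 (r = 0.94) more closely than H3 (r = −0.55), as a description over the same windows. Both are terms of the difference, and the standard deviation over windows was larger for H3K4Me3 (1.18 and 1.47) than for H3 (0.644 and 0.461). The order of these correlations is thus largely built in.

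Windows differed by their place in a gene. Windows centred on a 5′ end had a median difference of 1.52 on slide 1 and 1.81 on slide 2, and 85.3% of these 12500 windows were called higher. In the rest of genes the medians were −0.63 and −0.73, and 51.8% of 15062 windows were called lower. The 1933 windows in divergent intergenic regions, which hold promoters on both sides, had medians of 1.43 and 1.48. The 2020 windows in tandem regions had 0.90 and 0.84, and the 400 windows in convergent regions, which hold only gene ends, 0.08 and −0.21. In divergent regions H3K4Me3 was 0.30 and 0.73, against H3 at −1.03 and −0.70. The positive difference there thus went with low H3.

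At gene 5′ ends, 4276 protein-coding genes had a value, and the median difference was 2.52 (2.29 on slide 1 and 2.74 on slide 2), which is 5.73-fold above a difference of 0. The quartiles were 1.87 and 3.04. By the same test, 3949 genes (92.4%) were above a difference of 0 (higher) and 117 (2.74%) below it (lower), 3851 (90.1%) and 90 (2.1%) of them by at least 2-fold. Only 29 genes were lower with arrays centred on the 10th percentile, and 30 of 3982 with probes well above background on all 4 arrays. The shared standard error was 0.35. A difference above 0 was thus the rule for a gene 5′ end, and the genes that stood out were those far above other genes and the few that lay below 0.

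At each end, 12 genes are named by one rule (at least 3 probes, called, the same sign on both slides, and at least 0.5 of the H3 spots well above background), from 2979 eligible genes. The next gene outside had 4.18 at the high end and −2.01 at the low end. The highest was ags1, the synthase of cell wall alpha-1,3-glucan (SPCC1281.01). Its H3K4Me3 was 5.20 on slide 1 and 4.84 on slide 2, against H3 at 0.45 and 0.20. The difference was 4.75 and 4.64, a mean of 4.69 (SE 0.35, limma adjusted p = 8.0e-37), or 25.8-fold. Here H3 itself was above the median probe, so the high value came from H3K4Me3.

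The mitotic inhibitor kinase gene wee1 had H3K4Me3 of 4.08 and 4.35, against H3 at −0.23 and −0.32, with a mean difference of 4.49 (limma adjusted p = 3.9e-34). For hhp2, which encodes a casein kinase 1, H3K4Me3 was 3.64 and 3.51, against H3 at −0.83 and −0.67, with a mean difference of 4.33 (adjusted p = 6.6e-32). The transcription factor gene esc1 was like ags1, with H3K4Me3 of 5.27 and 4.45, against H3 at 0.53 and 0.57. Its slides differed more, with differences of 4.75 and 3.88. In contrast, tps1, which encodes trehalose-phosphate synthase, ranked high with a lower H3K4Me3 of 2.39 and 3.06, against H3 at −1.95 and −1.16.

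The other 7 were SPCC4G3.12C (a ubiquitin ligase, 4.29), dad5 (a subunit of the DASH complex that holds microtubules at kinetochores, 4.28), fep1 (an iron-sensing transcription factor, 4.26), tcb1 (a tether between endoplasmic reticulum and plasma membrane, 4.25), rpl902 (ribosomal protein L9, 4.24), mrt4 (a ribosome assembly factor, 4.24) and rps1501 (ribosomal protein uS19, 4.23). Across the 12 genes, the differences were 3.95 to 4.75 on slide 1 and 3.88 to 4.67 on slide 2. Neighbours in this order differ by less than their standard error. H3 was below the median probe in 10 of the 12 and above it in ags1 and esc1. Of their H3K4Me3 spots, 37 of 38 were well above background on slide 1 and 38 of 38 on slide 2.

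At the low end stood cmt2, a catechol O-methyltransferase gene 36.0 kb from the first probe of chromosome II (SPBPB21E7.04C). Its H3K4Me3 was −2.38 and −2.37, against H3 at 0.14 and 0.49. The difference was −2.51 and −2.86, a mean of −2.68 (SE 0.35, limma adjusted p = 6.5e-14), so that H3 exceeded H3K4Me3 6.43-fold on this scale. For opt3, an oligopeptide transporter gene, H3K4Me3 was −1.47 and −1.98, against H3 at 1.18 and 0.71, with a mean difference of −2.67 (adjusted p = 8.2e-14). It was the named low gene with the most H3. SPBC23G7.10C, a flavin oxidoreductase gene within the bounds of the mating-type region, had H3K4Me3 of −2.12 and −1.98, against H3 at 0.88 and 0.11. Its difference was −3.0 and −2.09.

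The other 9 included 3 more transporter genes, SPBPB8B6.02C (urea, −2.49), dal51 (dipeptides, −2.33) and ght7 (hexoses, −2.06). The rest were tlh1 (a RecQ-type helicase gene at a chromosome end, −2.42), grt1 (a transcription factor, −2.28), SPBPB10D8.02C (an arylsulfatase, −2.20), frp2 (a ferric-chelate reductase, −2.12), fub2 (of the PI31 proteasome regulator family, −2.10) and SPBC1289.14 (an adducin, −2.03). The slides differed most in grt1, with −1.34 and −3.23, and SPBPB10D8.02C, with −1.20 and −3.19. H3 was above the median probe in 11 of the 12, between −0.06 and 0.95 over all of them, whereas H3K4Me3 lay between −2.38 and −1.53. Of these genes, 8 lay within 100 kb of a chromosome end. Of their H3K4Me3 spots, only 6 of 40 were well above background on slide 1, against 36 of 40 on slide 2, while for H3 the counts were 39 and 40 of 40. In these 12 genes the low values went with ordinary or high H3 and little H3K4Me3, and their exact size on slide 1 was limited by background. The rule asked for H3 spots above background and ranked genes by the difference, so the H3 level partly follows from the choice. Probes of tlh1 and of other families with near-identical copies, ribosomal protein and histone genes included, may measure several copies at once.

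**Figure D2:**
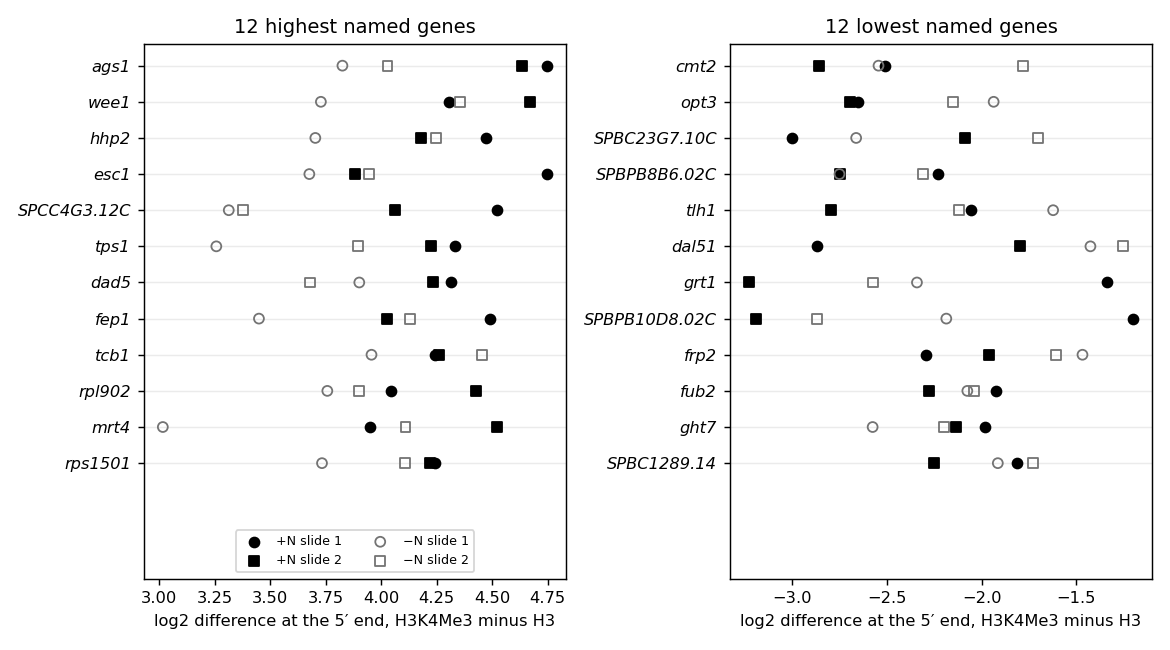
Difference H3K4Me3 minus H3 (log2) at the 5′ end of the 12 highest (left) and 12 lowest (right) named genes, with filled symbols for +N and open symbols for −N, circles for slide 1 and squares for slide 2. All +N values are at 3.88 or above on the left and at −1.20 or below on the right. All 24 genes have the same sign in −N, as do 3932 of 3949 genes called higher and 114 of 117 called lower.

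The 2 sets of promoters differed in nucleosomes as well. Over the 250 bp shown, median H3 was −0.88 in the 8 highest genes with a probe there and 0.39 in the 9 lowest, against −0.97 in all 3050 such genes. Median H3K4Me3 was 3.63 in the highest and −2.26 in the lowest, against 1.73 in all. Upstream of cmt2, H3K4Me3 was −3.64 and H3 0.35, against 4.11 and −0.92 upstream of ags1. These probes are part of the 5′ end that chose the genes, so the values describe them and test nothing. TATAAA was present on either strand in 3 of the 12 highest and in 8 of the 12 lowest promoters, against 1950 of all 4365 (44.7%). In the sequences shown, it began 223 and 100 bases before the start of opt3 and 33 bases before that of SPBC23G7.10C. The HomolD box (CAGTCACA), an element of fission yeast ribosomal protein promoters, was present in 76 of 124 ribosomal protein promoters (61.3%) and in 2.61% of all. The core of the ATF/CREB element (TGACGT) was found in 1 of 12 at each end and in 5.36% of all.

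Many of the lower genes lay near chromosome ends. Of the 117, 43 (36.8%) had their 5′ end within 100 kb of the first or last probe of a chromosome, against 148 of all 4276 genes (3.46%). Their median H3K4Me3 was −1.24 and their median H3 0.26, against 2.17 and −0.32 in all genes. In 74 of the 117, no H3K4Me3 spot was well above background on slide 1, and in 2 of them on either slide, where the value is only an upper limit. Gene length, number of exons and distance to the upstream neighbour had Spearman's rho of 0.08, 0.07 and −0.07 with the difference over 4276 genes, as a description. Genes with a divergent neighbour had a median of 2.55 and those with a tandem neighbour 2.46.

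The gene lists were read against the background of 92.4% higher and 2.74% lower. Among genes linked to histone methylation and demethylation, all 8 measured genes of the Set1 complex were higher, with a median of 2.45 against 2.52 over all genes. The gene of the catalytic subunit, set1, had a difference of 2.37 on slide 1 and 3.60 on slide 2. The other subunits were swd3 (3.40 on average), sdc1 (3.0), swd2 (2.5), spf1 (2.41), ash2 (2.00), shg1 (1.97) and swd1 (1.74). Genes of the H2B ubiquitin ligase, which Set1 needs for trimethylation, lay at 3.18 (rhp6), 2.96 (brl2) and 2.22 (brl1). Paf1 complex genes, which link this pathway to RNA polymerase, were at 3.46 (prf1), 3.16 (paf1), 1.81 (leo1) and 1.81 (cdc73). Genes of the demethylase family lay at 3.83 (lsd2, 1 probe), 3.08 (lid2) and 2.47 (lsd1). All were called higher, which is a share near that of all genes. The histone H3 genes were at 4.47 (hht2) and 3.31 (hht3), each from 2 probes.

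Among genes of protein synthesis and turnover, the cytosolic ribosomal protein genes had the highest median. All 124 measured cytosolic ribosomal protein genes were called higher, with a median of 3.31 (3.17 on slide 1 and 3.39 on slide 2), and 109 of them lay above the median of all genes. Their extremes were rps601 (4.65, 1 probe) and rpl3602 (4.62), and rpl901 (1.34) and rpl1201 (1.16). Median H3 was −0.38, close to the −0.32 of all genes, so the high difference went with H3K4Me3, at 2.82 against 2.17. Proteasome subunit genes had a median of 3.23, with 28 of 29 higher and 23 above the median of all genes. They ran from rpn12 (4.56) and rpn1302 (4.29), each with 1 probe, to SPCC18.17C (1.95) and rpt6 (0.47, adjusted p = 0.18 by limma). Translation factor genes had a median of 2.72 (37 of 37 higher, 22 above the median of all genes), with tef5 at 3.95, tif512 at 3.80, tsf1 at 2.13 and sce3 at 1.99. Mitochondrial ribosomal protein genes had 2.56 (45 of 46 higher, 26 above the median of all genes), from mrpl40 (3.84) and mrpl38 (3.53) to mrpl35 (1.62) and mrpl1 (0.23).

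Glycolysis and fermentation genes were spread over nearly the whole range. Of 15, 12 were higher, 2 lower and 1 was not called, with a median difference of 1.77. At tpi1 (3.87) and pgi1 (3.68) H3K4Me3 was high, at 3.02 and 2.64. At eno101, fba1, adh1 and tdh1 both antibodies were low. For tdh1, which encodes glyceraldehyde-3-phosphate dehydrogenase, H3K4Me3 was −2.04 on average, against H3 at −3.32, from 2 probes. The differences were 1.29 for tdh1, 1.39 for adh1, 1.77 for fba1 and 1.96 for eno101, against 1.34 and 0.99 for mitochondrial DNA. Those of tdh1 and adh1 were near this level of DNA without nucleosomes, and those of fba1 and eno101 above it. The call of tdh1 was lost with a trended prior (adjusted p = 0.11). At eno102 (−1.94) and pdc202 (−1.90), H3 was above the median probe and H3K4Me3 below it. Over all 30 genes with mean H3 at or below −2, the difference had a median of 1.67 and ran from 0.45 to 3.82.

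Genes of the meiotic programme were measured early after the shift. All 14 measured recombination genes were higher, with a median of 2.58, from hop1 (3.45), an axis component, and mcp7 (3.32) to rec6 (1.34) and rec7 (1.18, 1 probe). With both antibodies scaled to 1 spread, rec7 was at −0.64. The genes of meiotic entry and pheromone response had a median of 2.05, with 9 of 13 higher and 2 lower. The highest were gpa1 (3.87, 1 probe), the G protein subunit that relays the pheromone signal, and mei4 (3.43), a meiotic transcription factor. The lowest were mfm3 (−1.50), an M-factor precursor gene, and map2 (−1.56), the P-factor precursor gene. At map2, H3K4Me3 averaged −1.15 and H3 0.41. Neither was called lower with arrays centred on the 10th percentile. Sporulation genes had 2.25 (15 of 16 higher), with spo20 at 3.39, spo3 at 3.23, spo4 at 1.51 and spo6 at 0.13. The meiotically upregulated mug genes had 2.23 (67 of 80 higher, 4 lower), from mug2 (4.19) and mug103 (3.86) to mug168 (−1.12) and mug24 (−1.21). With bright probes only, mug168 was at 0.040. The wtf meiotic driver genes are a family of related genes, whose probes may measure more than 1 member. They had 2.22 (7 of 7), from wtf13 (4.30, 1 probe) and wtf10 (2.47, 1 probe) to wtf11 (1.78) and wtf15 (1.19).

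Genes of the nitrogen starvation response had a median of 1.49 in +N (2.06 on slide 1 and 1.67 on slide 2, medians of different genes), against 1.34 in −N. Of 9 measured, 7 were higher and 1 lower in +N. They ran from isp6 (4.2, 1 probe), a vacuolar protease gene, and amt1 (3.69), an ammonium transporter gene, to amt3 (0.19), another ammonium transporter gene, and isp4 (−1.70), an oligopeptide transporter gene. Heat shock and chaperone genes had 2.78 (9 of 10 higher), with psi1 at 3.16, ssa1 at 2.98, ssa2 at 1.12 and hsp16 at 0.54. At ssa2 both antibodies were low, with H3K4Me3 at −1.42 and H3 at −2.53, and its call was lost with a trended prior (adjusted p = 0.08). Among untranslated genes, values were taken without a test. The largest class, 5845 long noncoding RNA genes, had a median difference of 0.867, with quartiles of −0.79 and 2.18. The 30 genes annotated only as noncoding RNA had 1.36 and the 32 rRNA genes 0.881. The 57 snoRNA genes had a median difference of 2.12 and the 6 snRNA genes 2.22, whereas the 121 tRNA genes had 0.79, with H3K4Me3 at −0.55 and H3 at −1.23. That tRNA value was below the mitochondrial differences, as was the median over all windows (0.609). Mitochondrial H3, at −4.48 and −3.84, was far lower than H3 at tRNA genes.

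**Figure D3:**
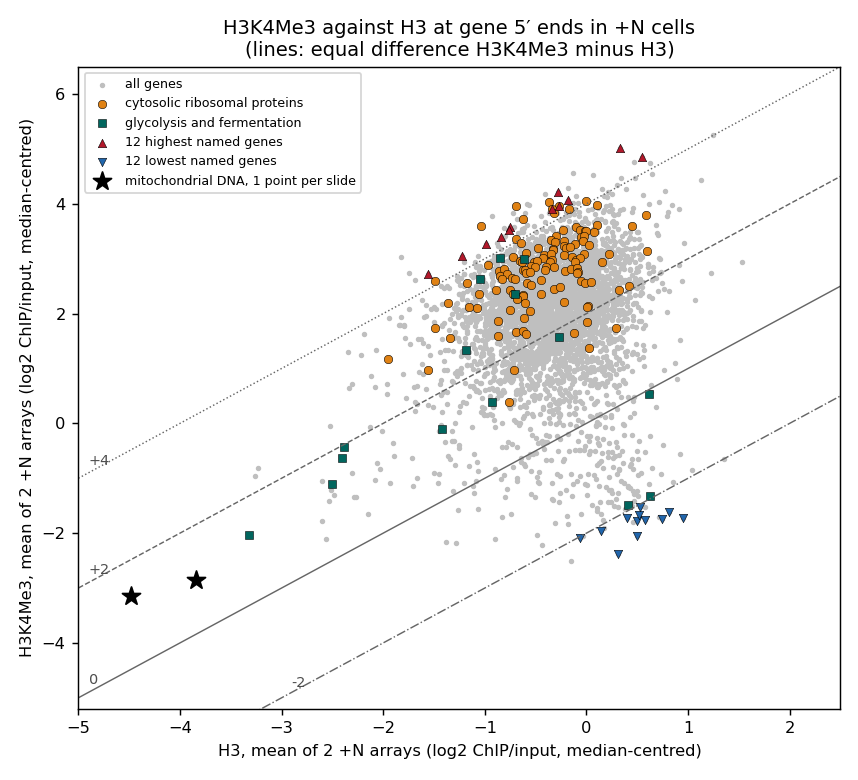
H3K4Me3 (vertical) against H3 (horizontal) at the 5′ ends of 4276 genes, means of 2 +N arrays in log2 ChIP/input, with lines of equal difference. The named highest genes lie along the +4 line and the lowest below −2 at H3 near or above 0, while 4 glycolytic genes lie at H3 below −2, towards the mitochondrial probes at the lower left.

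Genes whose rank changed most once H3 was taken into account were compared among the 3143 genes with at least 3 probes. Those that gained most were SPAC7D4.08 (rank 719 by the difference, against 2759 by H3K4Me3 alone), fhn1 (an eisosome assembly gene, 108 against 2069), taf9 (a subunit of SAGA and TFIID, 457 against 2350), sfk1 (491 against 2351) and cam1 (the calmodulin gene, 613 against 2427). Their H3 was low, between −2.12 and −1.61. Low H3 in genes that gain rank, and high H3 in genes that lose it, follow from the subtraction of H3. At fhn1, H3K4Me3 was 1.41 and 2.19, against H3 at −2.26 and −1.42. Those that lost most were SPAC17A2.10C (2255 against 391), SPBC1E8.03C (2568 against 822), mak5 (an RNA helicase gene, 2085 against 528), htr12 (a serine protease gene, 2430 against 876) and SPAC1805.16C (a purine nucleoside phosphorylase gene, 2539 against 1025), with H3 between 0.66 and 0.94. Scaling both antibodies to 1 spread removed the call of all 5 genes that lost rank. Of the 157 genes (5%) ranked highest by the difference, 77 (49%) were also among the 157 highest by H3K4Me3 alone. At the low end, 128 of 157 (81.5%) were shared. Among 10 equal bins of genes by H3, the median difference was 2.78 in the bin with the lowest H3 and 1.85 in the bin with the highest. H3 is subtracted in the difference, so a fall with rising H3 is partly built in. Median H3K4Me3 itself was 1.61 in the bin with the lowest H3 and 2.26 in the bin with the highest.

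Chromosome domains were compared with all other windows by their medians. In the subtelomeres, taken as 50 kb from the first and last probe of each chromosome (710 windows), the median difference was −1.10 on slide 1 and −1.94 on slide 2, against 0.57 and 0.71 elsewhere. H3K4Me3 was −1.13 and −1.70, whereas H3 was −0.01 and 0.19, near the median probe. Relative to other windows the subtelomeres were at −2.16 on average, but at −0.47 over the 123 of their windows left when only probes well above background were used. The ends were not alike. Chromosome I had −2.07 and −2.55 on the left and −2.10 and −3.07 on the right. Chromosome II had −1.55 and −2.78 on the left and −1.20 and −1.68 on the right. The ends of chromosome III had 0.00 and −0.18 on the left and 0.37 and 0.51 on the right, much closer to the other windows. The first probes lay at unlike coordinates on the chromosomes, so these segments may not be equally far from the true chromosome ends. Of the subtelomeric windows, 68.2% were called lower, against 27.6% of all.

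In the mating-type region (II:2114219-2133394, 53 windows) the median was −0.91 and −1.10, with single windows between −2.38 and 1.67. H3K4Me3 was −0.42 and −0.69, against H3 at 0.18 and 0.23. The reference carries another mating type than these h+/h+ cells, so cassette probes may not match fully. The centromeres, taken as the longest interval without protein-coding genes on a chromosome, were the exception among these domains, since H3 was low. At centromere II (41 windows) H3K4Me3 was −1.41 and −3.04, against H3 at −3.25 and −3.46, and the difference of 1.21 and 0.32 was below the mitochondrial background. At centromere III (29 windows) H3K4Me3 was −1.45 and −1.58, against H3 at −1.24 and −0.95, with a difference of −0.11 and −0.58. Both centromeres together differed from other windows by −0.47 on average, and by 1.59 when both antibodies were scaled to 1 spread, so their direction is not settled. Centromere I lay beyond the part of chromosome I where probes could be matched to the annotation and was not used here.

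**Figure D4:**
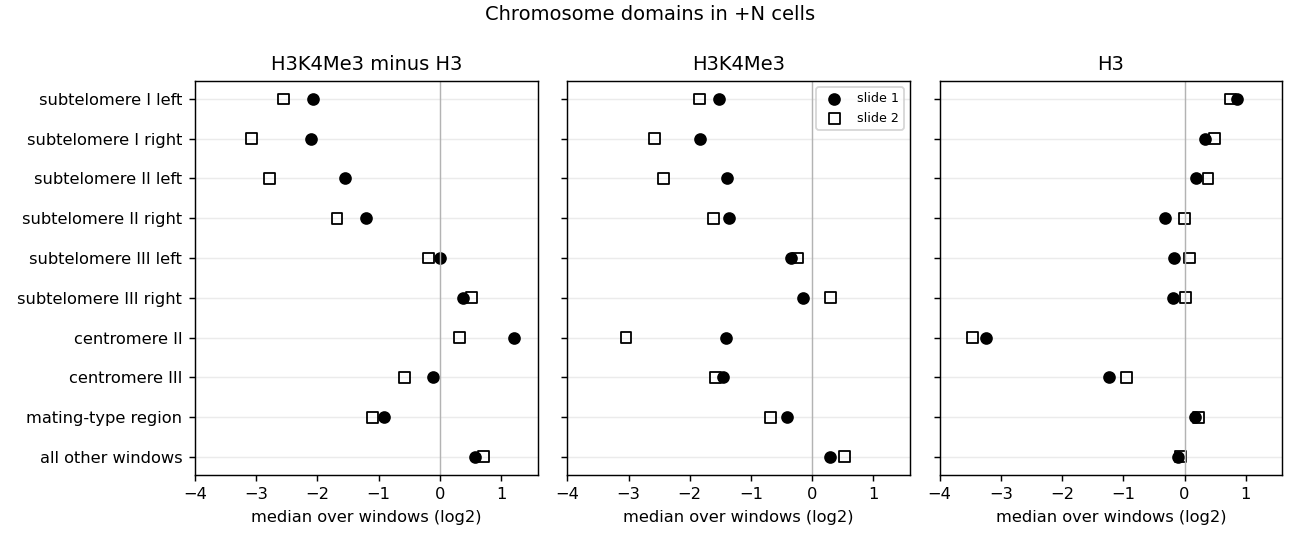
Median over windows (log2) of the difference H3K4Me3 minus H3 (left), H3K4Me3 (middle) and H3 (right) for the 6 chromosome ends, 2 centromeres, the mating-type region and all other windows in +N cells, with filled circles for slide 1 and open squares for slide 2. The ends of chromosomes I and II are low in H3K4Me3 with H3 near 0, whereas centromere II is low in both.

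Long stretches were measured along the chromosomes. Runs of consecutive windows at or below −1 with the same sign on both slides numbered 1527 and had a median length of 2281 bp, and 10 reached 10 kb. The longest spanned 53.1 kb at the right end of chromosome I (I:5500081-5553202), with a mean difference of −2.01 and −2.87. The next were both at the left end of chromosome II. One of 34.0 kb (II:57448-91482, −1.55 and −2.61) covered 11 genes, eno102, cmt2 and SPBPB10D8.02C among them. One of 24.2 kb (II:29534-53754, −1.59 and −2.91) covered 5, including ght7, SPBPB8B6.02C and grt1. The fourth, of 17.7 kb, lay within a chromosome arm (I:851567-869265, −1.94 and −2.14). It overlapped sib1, the large gene of ferrichrome synthetase, and rpb2, which encodes an RNA polymerase II subunit. The fifth, of 13.7 kb (I:66893-80553, −1.44 and −2.25), overlapped SPAC977.17, SPAPJ695.02 and SPAPJ695.01C.

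Runs at or above 1 were more numerous (2512), and their longest reached 12.8 kb. That run (I:2699169-2711948, 2.15 and 2.45) held 8 genes, among them the cyclin gene cig2 and rpp101, a ribosomal protein gene. The next 2 held 10 genes each, over 12.6 kb (II:1569870-1582509, 1.70 and 1.83) and 11.95 kb (II:2953449-2965399, 1.69 and 2.42). In the first of these H3K4Me3 averaged 1.00 and H3 −0.77. The others were 11.1 kb (I:4468124-4479232, 2.02 and 2.20) and 10.01 kb (II:2501126-2511136, 1.97 and 2.16). The shortest run held 9 genes.

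**Figure D5:**
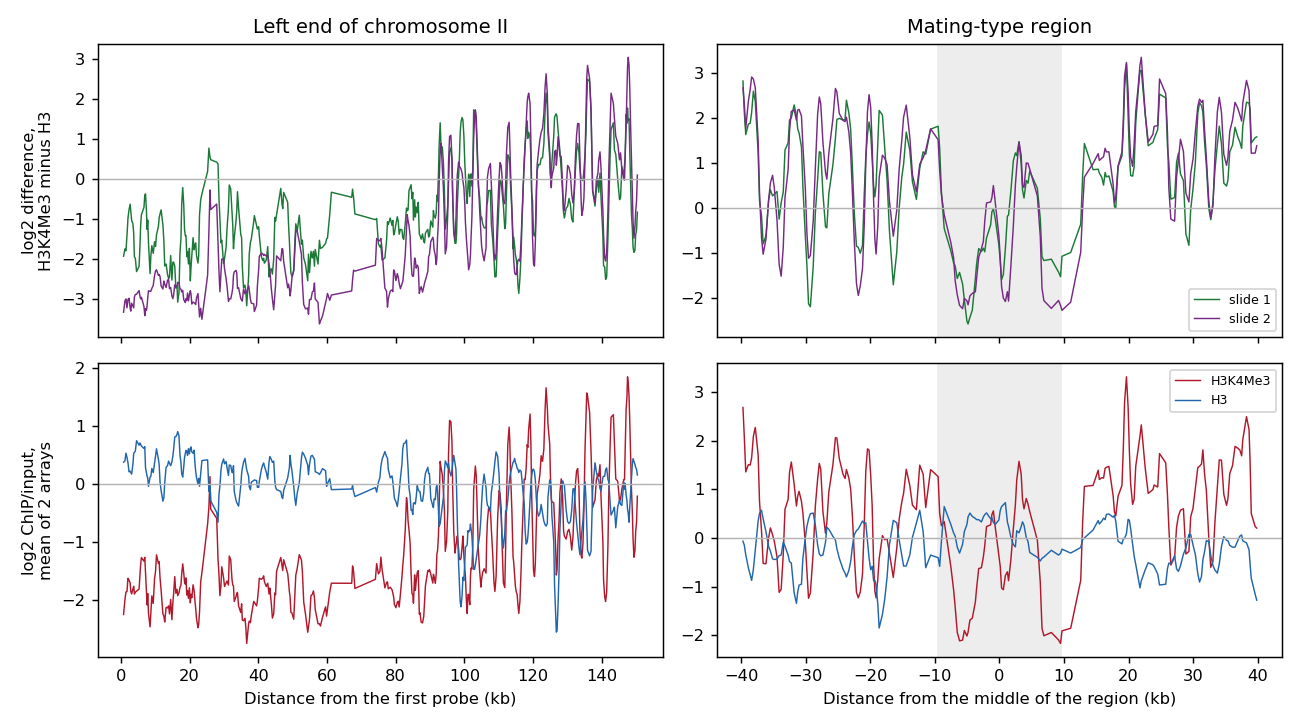
Difference H3K4Me3 minus H3 per slide (top, log2) and the mean H3K4Me3 and H3 of 2 arrays (bottom, log2 ChIP/input) in windows of 5 probes along the left end of chromosome II (left) and the mating-type region (right, shaded) in +N cells. The difference lies below −1 over most of the first 90 kb on slide 2 and alternates between genes and promoters further in.

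The same difference was measured in −N cells on the same 2 slides. Over genes, the +N and −N means had r = 0.93, as a description, and the median gene was 0.26 higher in +N. Of the 117 genes called lower in +N, 111 (94.9%) were also called lower in −N, which is 68.5% of the 162 lower there. All 12 highest and all 12 lowest named genes kept their sign in −N, with means of 3.35 to 4.21 and of −2.53 to −1.34. So did nearly all called genes, with 3932 of the 3949 higher genes above 0 in −N and 114 of the 117 lower genes below 0. In a limma fit of the +N slide differences against those of −N, no gene and no window passed 0.05 after adjustment (smallest adjusted p 0.093 and 0.63), with 318 genes and 2923 windows at an unadjusted p under 0.05. With the replicate as a block, 153 genes (3.58%) were higher and 31 (0.725%) lower in +N, and of windows 1235 (3.32%) were higher and 737 (1.98%) lower. The blocked fit had 1 residual degree of freedom, and limma gave all genes the same standard error, and likewise all windows. Its calls therefore follow the mean change alone. Which of these fits holds rests on 2 slides.

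The genes with the largest differences between conditions, 3 in each direction, were led by ctr5, a copper transporter subunit gene with 1 probe. It had 3.78 and 3.02 in +N, against 0.14 and 1.33 in −N. The glyoxylase gene hsp3102 had 1.49 and 1.52, against −0.61 and 0.00. The gene shu1, also with 1 probe, had 0.87 and −1.69, against −2.32 and −1.84. In the other direction, fbp1, which encodes the gluconeogenic enzyme fructose-1,6-bisphosphatase, had −0.16 and 0.50 in +N, against 2.10 and 2.24 in −N. The phosphoglycerate kinase gene pgk1 had 0.91 and 1.72, against 3.49 and 2.62. The kinase gene ppk1, with 1 probe, had −3.51 and −0.50, against 0.21 and 0.57, and its +N mean was 0.585 with outlier spots kept. These 6 genes were chosen as the extremes among genes whose change had the same sign on both slides, which 2763 of all 4276 genes had. Their separation between conditions therefore follows from the choice. None passed the unblocked fit (limma adjusted p = 0.09 for ctr5, 0.18 for fbp1 and 0.31 to 0.59 for the others). All 6 passed with the replicate block, which extremes chosen in this way favour.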

How the data were processed

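ChIP DNA (red channel) and input DNA (green channel) of each sample had been amplified by T7 transcription and hybridized together to Agilent arrays, and the authors deposited the Feature Extraction (10.7.3.1) intensity of every spot, background-subtracted and dye-normalized. The arrays held oligonucleotide probes with a median spacing of 265 bp in the files. The genome build was not given in the sources used here. Of 42641 nuclear probes, 5402 (12.7%) marked as outliers on any array were dropped, leaving 37239. From the deposited processed signals, log2 of red over green was computed, the array median was subtracted, and H3 was then subtracted from H3K4Me3 of the same slide. The table of log2 ratios per probe that the authors deposited held the same red over green ratios within rounding (5e-05), uncentred, with medians of −0.615 and −0.234 for H3K4Me3 +N and 0.0901 and 0.0867 for H3 +N. Windows of 5 consecutive probes were averaged. Gene values were means over the probes of the 5′ end (250 bp before and 750 bp after the start) in RefSeq assembly ASM294v3. Probe positions matched it in 43 of 51 segments of 250 kb, and the 8 others, beyond position 3750000 of chromosome I, were shifted and not compared with genes.

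Both slide differences were tested against 0 with limma 3.58.1 in R 4.3.3 (Benjamini-Hochberg, 0.05). The scripts were tested on simulated data. Named genes were the 12 highest and 12 lowest with at least 3 probes, called, of 1 sign on both slides and with at least 0.5 of the H3 spots well above background. Other named items were the 5 genes with the largest gain and loss of rank once H3 was divided out, the 5 longest runs of each kind, up to 4 extreme members of each list, all members of the methylation lists, and the 3 genes highest and lowest in +N over −N. Members and lists were chosen with earlier results of these data known. The alternatives were no replicate block, all 8 arrays setting the spread, leaving out a replicate, normexp (on median signals, offset 50), the ChIP channel alone, another centring or scaling, other filters on outlier and dim spots, a trended prior, and other windows. After the data were seen, a filter to bright probes and leaving out each slide difference of +N or −N were added. Promoters were read from the RefSeq genome.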

Additional observations from a re-analysis of the deposited data

Results flagged for a closer look

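In ppk1, a serine/threonine protein kinase gene with 1 probe at the 5′ end, the difference H3K4Me3 minus H3 was −3.51 and −0.50 in +N, against 0.21 and 0.57 in −N. Both +N slides thus lay below 0 and both −N slides above it. The change between conditions was −2.40, with an adjusted p of 0.57 in the limma fit without the replicate block and 6.0e-12 with it. The blocked fit used a standard error shared by all genes, so its p does not measure the spread of ppk1 between the slides. With outlier spots kept, the +N difference of ppk1 was 0.585.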

How the results depend on the processing

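Counts of lower places depended most on centring and background. Centred on the 10th percentile, 4404 windows and 29 genes were lower, against 10286 and 117. With only probes well above background on all 4 arrays, a filter that by construction removes low H3K4Me3, 238 of 15670 windows and 30 of 3982 genes were lower. The same filter gave −0.466 for subtelomeres minus other windows (123 windows), against −2.162, then −1.922 for centromeres (11 windows), against −0.465, and −1.363 for the mating-type region (21 windows), against −1.646. Scaling to 1 spread gave 1.586 for centromeres. The 5′ excess was 2.422 with normexp and 2.568 with 1 spread, against 2.959, and the mating-type region −1.239 with normexp. The median gene moved by 0.67 with the 10th percentile, by 0.60 with probes from 0 to 500 bp, by 0.30 with bright probes only, by −0.51 with normexp, by −0.37 with 1 spread and by −0.28 without input.

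Leaving out a replicate leaves 1 slide in +N, which was assumed to vary like the −N slides that then set the spread. It gave 18369 to 19421 higher and 10326 to 10877 lower windows, 3852 to 4015 higher and 119 to 134 lower genes, an excess of 2.694 to 3.224, subtelomeres at −2.649 to −1.674, centromeres at −0.827 to −0.104 and the mating-type region at −1.813 to −1.479. For +N against −N, the replicate block called 1972 windows and 184 genes, against 0 and 0 without it. Within +N, the H3K4Me3 and H3 arrays of the same number deviated together (r = 0.32 over windows), which 2 pairs cannot establish. No −N array entered this value, so it does not bear on the block between +N and −N. Leaving out +N replicate 1 called 2 windows and 82 genes, and +N replicate 2 called 1002 and 126, against 0 windows for either −N replicate and 0 and 1 genes. The 10th percentile called 1 gene.

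Of 1581 values of 118 named genes under these alternatives, 1540 kept the side of the threshold, 20 lost the call, 18 gained it and 3 reversed. Direction was compared only for genes called in the main fit, so a change of sign in an uncalled gene was not counted. The reversals were ppk1 at 0.585 with outlier spots kept, rec7 at −0.643 with 1 spread and mug168 at 0.040 with bright probes only. The call was lost in leo1 and mfm3 with 1 spread, and in map2, mfm3, mug24, mug168 and isp4 with the 10th percentile. The causes were not tested.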
